A study of Mus musculus with 6 samples.

Results

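Kallikreins are secreted serine proteases, and serpins are the proteins that trap such proteases in an inactive complex. In the brain both act on the matrix and cell surface around synapses and myelin, where a protease released by neurons or glia is held in check by an inhibitor from the same tissue. The 8 genes described here are 5 kallikreins (Klk6, Klk7, Klk8, Klk10 and Klk11) and 3 serpins (Serpinb8, Serpini1 and Serpine2), out of 25239 genes listed. They were chosen by the readout itself, since Klk10 had been seen to be much higher and Serpinb8 much lower in Ube3a m-/p+ mice. The difference between the genotypes in these 8 genes is therefore given as a description, with no p-value. Calls and intervals that include it are part of that description and support nothing.

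RNA was sequenced from the hippocampus of 6 male C57BL/6 mice, each giving its own library. The mice were 6 to 8 weeks old, and the sources used here name no treatment. The genotypes were Ube3a m+/p+ (wild type, WT, n = 3) and Ube3a m-/p+ (n = 3), a model of Angelman syndrome. The Ube3a m-/p+ mice inherit no functional copy of the ubiquitin ligase gene Ube3a from the mother and keep the copy from the father, which most neurons silence and other cells use. Hippocampus is a mix of cell types, so fewer cells of a type and less RNA per cell cannot be told apart.

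Ube3a itself had 879, 1221 and 1101 counts in the WT libraries (mice 1, 2 and 3, the order used throughout) against 859, 938 and 848 in the Ube3a m-/p+ libraries. In CPM, the counts of a gene scaled to a common total of gene counts per library, it was 132 ± 25.0 (SD, n = 3) in WT and 86.8 ± 8.78 (n = 3) in Ube3a m-/p+ mice, without overlap, a log2 fold change of -0.58 (SE 0.12, edgeR adjusted p = 0.0363). Leaving out WT mouse 2 or 3 or Ube3a m-/p+ mouse 2 or 3 raised the adjusted p to 0.142 to 0.251. The libraries held 7293272 to 11314409 counts on genes. In 2 WT mice genes of high GC content were low relative to the mean of the 6 libraries (Spearman's rho across genes -0.506 and -0.571 in mice 2 and 3), and in 2 Ube3a m-/p+ mice they were high (0.526 and 0.528 in mice 2 and 3). The mice numbered 1 lay near 0, at 0.0455 and 0.0589. The log2 fold change of each of the 8 genes is therefore also given after a correction that removes each library's trend with the GC content and length of transcripts, which took Ube3a to -0.18 (adjusted p = 0.316, and 0.000736 to 0.457 over all alternatives). In mice 2 and 3 the GC slope went with genotype, so the correction may also take away a difference due to genotype. Slope and genotype cannot be told apart there, and neither value is taken as the truer. The median GC content of tested genes was 49.9%. The 5 kallikreins lay above it, at 50.0% to 57.0%, and the 3 serpins below it, at 37.2% to 45.7%.

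A gene was called at an edgeR adjusted p below 0.05 with a change above 1.2-fold, over the 14445 genes with enough counts to be tested. Of these, 1.02% were called higher and 0.99% lower in Ube3a m-/p+ mice, and the groups did not overlap in 10.8% (higher) and 14.2% (lower). Of the 8 genes, 5 had enough counts to be tested (Klk8, Klk10, Serpinb8, Serpini1 and Serpine2), and Klk10 only because of its level in Ube3a m-/p+ mice, as every WT mouse lay below the limit of 1.14 CPM. Klk10 was called higher, and Serpinb8 and Serpini1 were called lower. Over all 8, the fitted difference was above 0 for the 5 kallikreins and below 0 for the 3 serpins. The groups did not overlap for Klk6 and Klk10 (higher) and for Serpinb8, Serpini1 and Serpine2 (lower). Nothing is read from these counts, because the same contrast chose the genes. Leaving out WT mouse 2, WT mouse 3, Ube3a m-/p+ mouse 2 or Ube3a m-/p+ mouse 3 left 0 of the 8 called by edgeR.

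**Figure D1:**
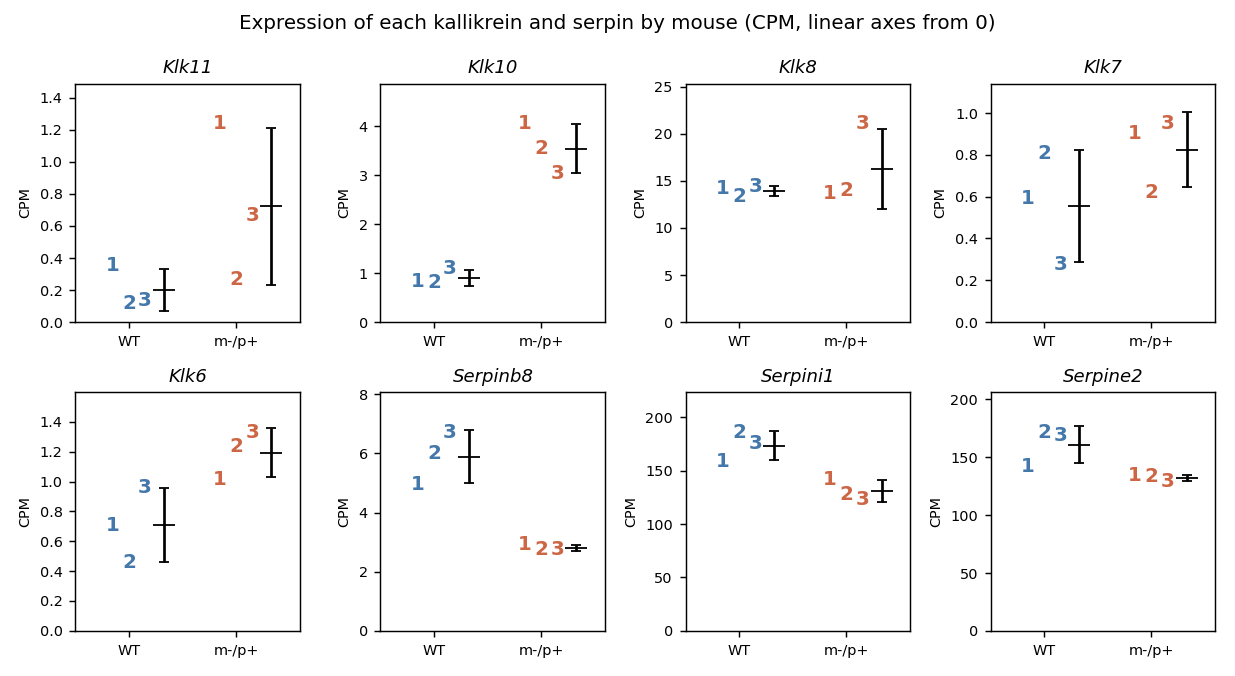
CPM of each of the 8 genes in each mouse, on linear axes that start at 0 and differ between panels. Digits are the mouse numbers, and bars show the mean and SD of the 3 mice of a genotype. The Klk10 values of the Ube3a m-/p+ mice (3.04 to 4.06 CPM) lie far above those of the WT mice (0.807 to 1.10), the Serpinb8 values lie below them, and those of Klk7, Klk8 and Klk11 overlap.

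The 5 kallikreins lie in a row on chromosome 7, all on the forward strand, in the order Klk11, Klk10, Klk8, Klk7 and Klk6, with Klk9 between Klk10 and Klk8. From the start of Klk11 to the end of Klk6 the row spans 57.4 kb (GENCODE M21, mm10). Only 1771 bp separate Klk11 from Klk10. Ube3a is on the same chromosome, 15397 kb from the end of Klk6. Every promoter shown is the stretch of 250 bases before the RefSeq start (GRCm38.p6), printed for the gene with the largest difference (Klk10), its upstream neighbour (Klk11), the most highly expressed kallikrein (Klk8) and the serpin with the largest difference (Serpinb8). Capitals mark matches on either strand to the motifs searched. These were the TATA box TATAAA, the CCAAT box CCAAT, the GC box GGGCGG, the E-box CANNTG, the AP-1 site TGANTCA and the nuclear receptor half-site AGGTCA, none of which overlap each other in these windows.
Klk11, chr7:43774367-43774616, + strand: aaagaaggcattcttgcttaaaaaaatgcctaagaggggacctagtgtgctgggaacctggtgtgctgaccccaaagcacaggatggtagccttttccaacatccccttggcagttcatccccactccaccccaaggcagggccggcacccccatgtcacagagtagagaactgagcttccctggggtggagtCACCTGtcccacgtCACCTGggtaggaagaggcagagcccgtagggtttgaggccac
Klk10, chr7:43780804-43781053, + strand: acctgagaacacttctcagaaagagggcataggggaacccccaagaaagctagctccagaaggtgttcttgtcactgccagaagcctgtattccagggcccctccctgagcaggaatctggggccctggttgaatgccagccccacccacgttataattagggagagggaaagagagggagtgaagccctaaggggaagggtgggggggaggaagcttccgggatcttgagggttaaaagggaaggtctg
Klk8, chr7:43797327-43797576, + strand: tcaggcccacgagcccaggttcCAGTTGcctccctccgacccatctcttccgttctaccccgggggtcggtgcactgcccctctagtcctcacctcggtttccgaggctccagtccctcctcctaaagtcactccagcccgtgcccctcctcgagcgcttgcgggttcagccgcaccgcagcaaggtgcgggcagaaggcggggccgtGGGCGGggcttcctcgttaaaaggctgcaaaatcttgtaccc
Serpinb8, chr1:107589756-107590005, + strand: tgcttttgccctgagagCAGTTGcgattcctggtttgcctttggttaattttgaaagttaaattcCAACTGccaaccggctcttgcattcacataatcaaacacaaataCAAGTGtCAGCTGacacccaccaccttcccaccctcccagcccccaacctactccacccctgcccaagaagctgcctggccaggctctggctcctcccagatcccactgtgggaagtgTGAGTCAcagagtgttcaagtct

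The Klk10 window held none of the 6 motifs. It had 2 CpG dinucleotides and a GC content of 56.0%, where the median of 32851 annotated promoters was 6 CpG and 52.4%. In the Klk8 window 18 CpG dinucleotides stood in 65.2% GC, with a GC box 42 bases and an E-box 228 bases before the start. The first of the 2 annotated Klk11 promoters, which is the one printed, had E-boxes 57 and 43 bases before the start and 3 CpG. Serpinb8 had 4 E-boxes, an AP-1 site 23 bases before the start, and 2 CpG. Over all promoters 66.2% held an E-box, 32.7% a GC box, 33.8% a CCAAT box, 14.0% the half-site, 12.4% a TATA box and 6.75% an AP-1 site. In the promoters of the 8 genes no TATA box or half-site was found, which says only that those letters are not in these windows.

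Klk10 (chr7:43781035-43785410) encodes a secreted kallikrein best known from epithelia. It was sparsely counted in WT, with 7, 7 and 8 counts, against 36, 40 and 32 in Ube3a m-/p+ mice. As a level this was 0.825, 0.807 and 1.10 CPM in WT against 4.06, 3.54 and 3.04 CPM in Ube3a m-/p+ mice. Every Ube3a m-/p+ mouse was above every WT mouse, and the lowest of them was well clear of the highest WT mouse. The means were 0.909 ± 0.163 and 3.55 ± 0.508 CPM (SD, n = 3 each), a ratio of 3.90 and a log2 fold change of 1.97 (SE 0.34). After correction for GC and length the difference was 1.79 (SE 0.37). Of the 8 genes only Klk10 was still called with that correction, under which 0.613% of all genes were called, and nothing is read from that call because the same contrast chose Klk10. Between the mice numbered 1, the Klk10 level of the Ube3a m-/p+ mouse was 4.92 times that of the WT mouse. This sets 1 mouse against 1 mouse from the contrast that chose Klk10, so nothing is read from it. Ube3a m-/p+ mouse 1 also had the highest Klk10 level of its group.

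Lists of markers of tissues other than the hippocampus were also compared. The summed level of 8 epidermal and epithelial markers was 17.3 to 18.7 CPM in WT against 22.0, 34.1 and 35.0 CPM in Ube3a m-/p+ mice. All 3 of these markers with enough counts to be tested had a difference above 0. Of these, edgeR called 1, Lor, the loricrin of cornified epidermis, in the fit without the correction for GC and length. Lor had 67, 63 and 48 counts in WT against 86, 224 and 217 in Ube3a m-/p+ mice. The larger counts were in Ube3a m-/p+ mice 2 and 3, whose GC slopes were 0.526 and 0.528. Krt10 had 66, 74 and 50 counts in WT against 68, 107 and 112, and Krt1 13, 16 and 20 against 25, 29 and 27. These are raw counts, and the libraries held 7293272 to 8675252 counts on genes in WT against 8871052 to 11314409 in Ube3a m-/p+ mice. Scaled to these totals, the groups overlapped for both Krt10 and Krt1. Of the other epidermal markers, Ivl was at 0 in all 6 libraries, Krt14 had 1 count in all, and Krt5, Epcam and Cdh1 had at most 15 counts in a library. The summed level of 8 markers of meninges and fibroblasts was 48.5 to 56.8 CPM in WT against 64.1, 92.6 and 52.8 CPM in Ube3a m-/p+ mice, with a difference above 0 in 7 of 8, of which 1 was called. The summed level of 8 choroid plexus markers was 617, 105 and 2205 CPM in WT against 2293, 1635 and 110 CPM in Ube3a m-/p+ mice. The difference was above 0 in all 8, and none was called. Summed over 7 markers of thalamus and striatum, the WT mice had 124, 108 and 100 CPM. The Ube3a m-/p+ mice had 129, 117 and 113 CPM, and the groups overlapped. Of these 7, 5 had a difference above 0, and none was called. The part of such tissue in the Klk10 difference was not tested. The 7 markers of hippocampal neurons were present at a summed 814 to 949 CPM in every library.

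Klk11 (chr7:43774604-43779263) encodes hippostasin, a trypsin-like kallikrein first found in the hippocampus, and it is the upstream neighbour of Klk10. Its counts were 3, 1 and 1 in WT against 11, 3 and 7 in Ube3a m-/p+ mice, 26 in all. This corresponds to 0.353, 0.115 and 0.137 CPM in WT against 1.24, 0.265 and 0.665 CPM in Ube3a m-/p+ mice. The groups overlapped, since Ube3a m-/p+ mouse 2 lay below WT mouse 1. Pooled over the mice of a genotype, the level was 3.35 times that of WT, with an exact 95% interval of 1.23 to 11.4 that covers counting error only. Its log2 fold change, from a fit without the limit on low counts, was 1.74 (SE 0.84) and 1.63 (SE 0.85) with the correction.

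Klk8 (chr7:43797577-43803826) encodes neuropsin, a kallikrein of hippocampal pyramidal neurons that cleaves cell-surface proteins at synapses. It was the only kallikrein with over 100 counts in every library, at 14.1, 13.4 and 14.4 CPM in WT against 13.6, 14.0 and 21.1 CPM in Ube3a m-/p+ mice. Ube3a m-/p+ mice 1 and 2 lay within the WT range, and only mouse 3 stood above it. The means were 14.0 ± 0.533 and 16.2 ± 4.22 CPM (SD, n = 3 each). Its log2 fold change of 0.24 (SE 0.17) rested on mouse 3, as it was -0.0038 without that mouse and -0.0037 with the correction. Exons of Klk8 overlap those of the opposite-strand transcript 2310002F09Rik over 382 bp, and the strand setting of the counting is not given in the sources used here. The reads of the pair may therefore be mixed there. 2310002F09Rik had 31, 61 and 45 counts in WT against 33, 38 and 54 in Ube3a m-/p+ mice.

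Klk6 (chr7:43824499-43832030) encodes a trypsin-like protease of oligodendrocytes that can cleave myelin basic protein. Its counts of 6, 4 and 7 in WT against 9, 14 and 14 in Ube3a m-/p+ mice gave 0.707, 0.461 and 0.960 CPM and 1.01, 1.24 and 1.33 CPM. The groups did not overlap, but the highest WT mouse and the lowest Ube3a m-/p+ mouse were nearly level. Pooled, the ratio was 1.73 (exact 95% interval 0.952 to 3.28, counting error only), and the log2 fold change was 0.80 (SE 0.54), or 0.69 (SE 0.55) with the correction. The summed level of 8 markers of mature oligodendrocytes was 8350 to 8469 CPM in WT and 6958 to 7963 CPM in Ube3a m-/p+ mice.

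Klk7 (chr7:43811294-43816359) encodes a chymotrypsin-like kallikrein known for its role in the shedding of skin cells. Its counts were 5, 7 and 2 in WT against 8, 7 and 10 in Ube3a m-/p+ mice, or 0.589, 0.807 and 0.274 CPM and 0.902, 0.619 and 0.951 CPM. The groups overlapped. The pooled ratio was 1.42 (exact 95% interval 0.711 to 2.96, counting error only). The log2 fold change was 0.54 (SE 0.63), or 0.50 (SE 0.64) with the correction.

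**Figure D2:**
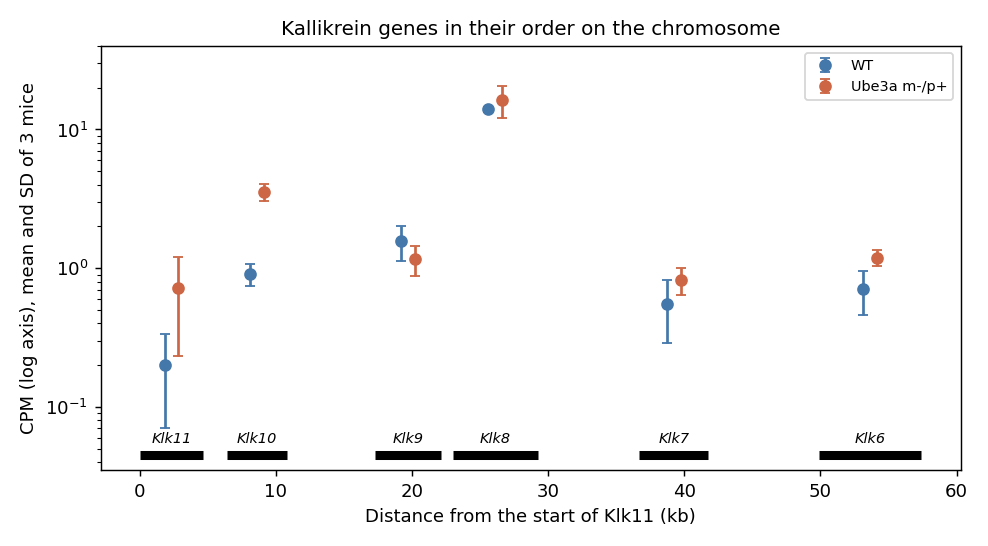
Level of the kallikreins (CPM, log axis) against distance from the start of Klk11 (kb), with black bars for the annotated genes. Points are means and bars SDs of 3 mice per genotype, shifted sideways to separate them. The Klk10 points of the genotypes are clearly apart, while Klk9, its neighbour, is lower on average in Ube3a m-/p+ mice (1.16 against 1.57 CPM).

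Klk9, between Klk10 and Klk8, is the only other kallikrein with enough counts to be tested. It was 1.57 ± 0.451 CPM in WT and 1.16 ± 0.291 CPM in Ube3a m-/p+ mice (SD, n = 3 each), with overlap, and did not pass the test (log2 fold change -0.42, SE 0.41, edgeR adjusted p = 0.555). Of the 22 other kallikreins listed, 9 had any count and the 8 besides Klk9 had at most 14 counts over the 6 libraries.

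Per length of transcript, Klk8 held most of the kallikrein RNA in every mouse. It made up 73.6% to 79.5% of the summed kallikrein CPM per kb in WT and 61.9% to 74.5% in Ube3a m-/p+ mice. The share of Klk10 was 4.47%, 4.28% and 5.61% in WT against 17.7%, 16.3% and 10.3% in Ube3a m-/p+ mice. Klk10 thus ranked second to Klk8 in each Ube3a m-/p+ mouse and stood below Klk9 in each WT mouse. The sum over all kallikreins was 13.4, 13.7 and 14.2 CPM per kb in WT against 16.7, 15.8 and 21.4 CPM per kb in Ube3a m-/p+ mice, without overlap. Leaving Klk10 out, it was 12.8, 13.2 and 13.4 CPM per kb in WT against 13.7, 13.2 and 19.2 CPM per kb in Ube3a m-/p+ mice, and the groups overlapped.

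**Figure D3:**
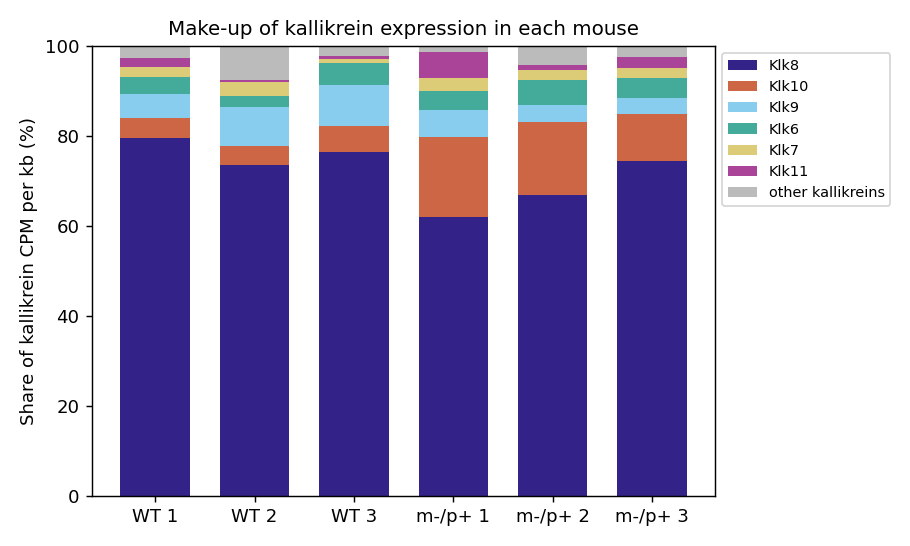
Share of each kallikrein in the summed kallikrein level (CPM per kb, stacked to 100%) in each of the 6 mice. Klk8 is the widest band in all mice, and the Klk10 band is 4.28% to 5.61% in WT and 10.3% to 17.7% in Ube3a m-/p+ mice.

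Serpinb8 (chr1:107590006-107610484, + strand) encodes a serpin that stays inside the cell and inhibits furin and trypsin-like proteases. It had 42, 52 and 49 counts in WT against 26, 31 and 29 in Ube3a m-/p+ mice. Its level was 4.95, 5.99 and 6.72 CPM in WT against 2.93, 2.74 and 2.76 CPM in Ube3a m-/p+ mice. All Ube3a m-/p+ mice were below all WT mice and close to each other, while the WT mice were more spread. The means of 5.89 ± 0.891 and 2.81 ± 0.106 CPM (SD, n = 3 each) gave a ratio of 0.477 and a log2 fold change of -1.04 (SE 0.24). With the correction it was -0.80 (SE 0.25) and no longer called. The ratio between the mice numbered 1 was 0.592, from 1 mouse of each genotype.

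Serpini1 (chr3:75557547-75643495, + strand) encodes neuroserpin, a secreted inhibitor of tissue plasminogen activator made by neurons. With 1260 to 1615 counts per library it was measured far more precisely than Serpinb8. It stood at 159, 186 and 176 CPM in WT against 142, 128 and 123 CPM in Ube3a m-/p+ mice. The groups did not overlap, and the nearest pair were the mice numbered 1. The means were 174 ± 13.7 and 131 ± 9.96 CPM (SD, n = 3 each), a ratio of 0.754 and a log2 fold change of -0.39 (SE 0.09). Serpini1 has the lowest GC content of the 8 genes (37.2%), and with the correction its log2 fold change was -0.05 (SE 0.07). The ratio between the mice numbered 1 was 0.894, from 1 mouse of each genotype.

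Serpine2 (chr1:79794197-79861180, - strand) encodes protease nexin-1, an inhibitor of thrombin, plasmin and plasminogen activators made by glia and neurons. Its levels were 142, 172 and 169 CPM in WT against 135, 133 and 129 CPM in Ube3a m-/p+ mice. The groups did not overlap, although WT mouse 1 lay close to the Ube3a m-/p+ mice. The means were 161 ± 16.2 and 132 ± 2.68 CPM (SD, n = 3 each), a ratio of 0.822. The fitted log2 fold change was -0.26 (SE 0.09), which was not called, and -0.15 (SE 0.07) with the correction.

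**Figure D4:**
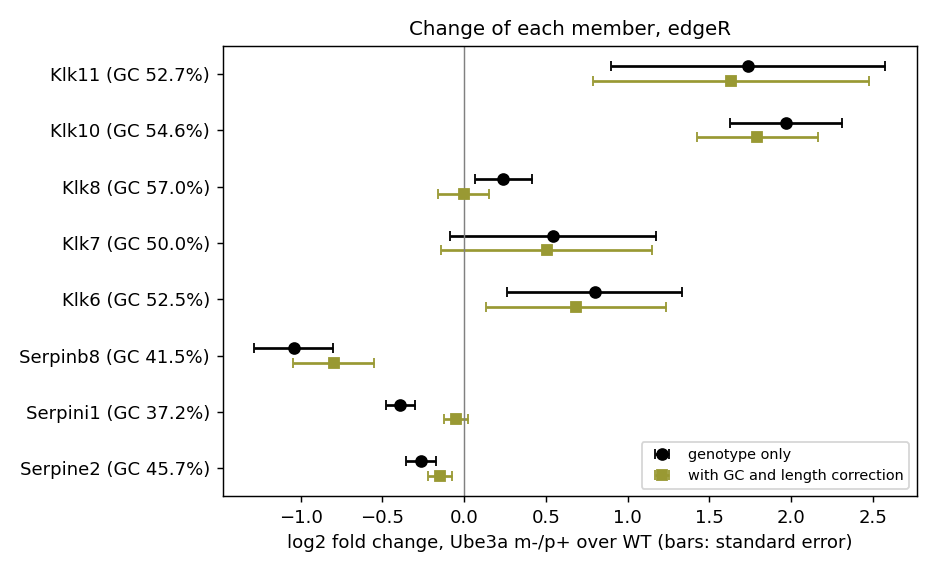
Log2 fold change (Ube3a m-/p+ over WT) of each gene with its SE, from the edgeR fit with genotype only (circles) and with GC and length corrected (squares), with the GC content of the transcript beside the name. Klk10 moves from 1.97 to 1.79 and Serpini1 from -0.39 to -0.05. Klk6, Klk7 and Klk11 come from fits without the limit on low counts.

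Per length, the levels of the 8 genes were far apart. Averaged over the 6 mice, Serpine2 was at 66.3 CPM per kb (range 58.5 to 77.7), Serpini1 at 37.2 (30.0 to 45.5) and Klk8 at 11.4 (10.1 to 16.0). Far below them were Klk10 at 1.62 CPM per kb (0.588 to 2.96), Serpinb8 at 0.949 (0.598 to 1.47), Klk6 at 0.683 (0.331 to 0.955), Klk7 at 0.364 (0.145 to 0.502) and Klk11 at 0.353 (0.0879 to 0.945). Of the 7 neighbouring pairs in this order, 3 kept it in all 6 mice, namely Serpine2 over Serpini1 (1.79-fold), Serpini1 over Klk8 (3.26-fold) and Klk8 over Klk10 (8.69-fold). Each had an exact two-sided sign-flip p of 0.03125, the smallest that 6 mice allow, or 0.0729 adjusted over the 7 pairs. The order came from these same mice, and a pair that keeps it in all 6 always gives this p. The p-value therefore only restates that the order was kept. The pair of Klk8 and Klk10 also holds the values that chose Klk10. The other 4 pairs kept the order in 3 to 5 of the 6 mice (exact p 0.0625 to 0.4375), with Klk6 over Klk7 in 5 mice (1.90-fold). The order of Klk6, Klk7 and Klk11 is not settled by these mice. Klk10 and Serpinb8 changed places with genotype, as Serpinb8 was the higher in all 3 WT mice and Klk10 in all 3 Ube3a m-/p+ mice. Serpinb8 and Klk6 did the same, with Serpinb8 the higher in all 3 WT mice and Klk6 in all 3 Ube3a m-/p+ mice. The sign-flip test takes both genotypes together, so its p-values do not describe these pairs. Nothing is read from either change of places, because the same contrast chose the genes.

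Genes around this protease system were taken from 6 lists holding 126 genes, of which 44 had enough counts to be tested. None was called by edgeR, 6 had an unadjusted p below 0.05 with a change above 1.2-fold (2832 of 14445 over all genes), and DESeq2 called 1. The groups did not overlap for 4 of the 44 (higher) and 5 (lower), where the shares over all genes were 10.8% and 14.2%. Their median log2 fold change was 0.04, where that of all tested genes was 0.0025.

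Of the 62 other serpins, 9 were tested, 5 of them with a difference above 0 and 4 below, with a median of 0.07. Serpinh1, the collagen chaperone HSP47, was 14.9 ± 2.25 CPM in WT and 21.6 ± 1.28 CPM in Ube3a m-/p+ mice (log2 fold change 0.55, SE 0.14, adjusted p = 0.0513, and 0.0140 to 0.272 over the alternatives). Serpina3n, an inhibitor made by reactive astrocytes, was 67.6 ± 3.22 and 53.3 ± 5.14 CPM (-0.33, SE 0.10, adjusted p = 0.0692), and after correction it was called, at -0.41 (adjusted p = 0.0299, and 0.0202 to 0.310 over all alternatives). Serpine3, with only 47 counts, was 1.51 ± 0.100 and 0.350 ± 0.299 CPM (-2.14, SE 0.57, adjusted p = 0.0549, and 0.0144 to 0.274 over the alternatives). It was tested only because of its level in WT mice, with 12, 14 and 11 counts there against 6, 1 and 3 in Ube3a m-/p+ mice. The p-values of Serpine3 are therefore a description only. Without Ube3a m-/p+ mouse 1 its log2 fold change was -2.93 (adjusted p = 0.0144). These 3 genes did not overlap between the groups, missed the threshold, and passed it when WT mouse 1 or Ube3a m-/p+ mouse 1 was left out. Serpinb6a, a relative of Serpinb8, was 25.5 ± 3.44 and 24.8 ± 2.35 CPM (-0.02, adjusted p = 0.943). All p-values of this and the next paragraph are from edgeR with n = 3 per genotype and adjusted over all genes tested.

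The 10 extracellular proteases tested had 6 differences above 0 and 4 below, with a median of 0.10. Furin, the proprotein convertase that Serpinb8 inhibits, was 40.7 ± 2.83 CPM in WT and 51.1 ± 2.50 CPM in Ube3a m-/p+ mice (log2 fold change 0.35, SE 0.10). Its adjusted p was 0.0632, and 0.0150 (without WT mouse 1) to 0.334 over the alternatives. Prss23, a secreted serine protease, was 15.9 and 20.1 CPM (adjusted p = 0.122), and neither gene overlapped between the groups. Htra1 (144 and 139 CPM, adjusted p = 0.817), Adamts4 (56.3 and 61.6 CPM, adjusted p = 0.356) and Plau, which encodes the urokinase plasminogen activator (2.43 and 2.28 CPM, adjusted p = 0.881), overlapped. The 5 tested receptors and uptake receptors had log2 fold changes above 0, from 0.02 (Thbd) to 0.57 (F2rl3), with a median of 0.05, and those of Lrp8 and Thbd turned below 0 under some alternatives. Lrp1, which clears serpin-protease complexes, was 675 and 784 CPM (0.23, adjusted p = 0.138, and 0.0282 to 0.787 over the alternatives). Lrp8 was 102 and 104 CPM (adjusted p = 0.772), the thrombin cofactor gene Thbd 14.3 in both (adjusted p = 0.950) and F2rl3 0.961 and 1.38 CPM (adjusted p = 0.435). Among 9 tested protease inhibitors of other families, the median was 0.16. The proteoglycan genes Spock2 (569 and 626 CPM, adjusted p = 0.277), Spock1 (233 and 207 CPM, adjusted p = 0.245) and Spock3 (86.4 and 71.3 CPM, adjusted p = 0.206, and 0.0222 to 0.851 over the alternatives) did not pass. Nor did the inhibitor genes A2m (4.66 and 7.39 CPM, adjusted p = 0.399) and Tfpi (3.43 and 2.58 CPM, adjusted p = 0.480). The 10 genes listed as targets of kallikreins or plasminogen activator, whether their proteins are cut directly or not, had a median of -0.02. Mbp (3265 and 3277 CPM, adjusted p = 0.900), Grin1 (765 and 821 CPM, adjusted p = 0.412), Agrn (351 and 386 CPM, adjusted p = 0.312) and Nrg1, a substrate of neuropsin (3.46 and 2.27 CPM, adjusted p = 0.306), did not pass either.

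The genes whose log2 CPM followed a member most closely over the 6 libraries were found by Pearson's r, as a description. For Klk10 they were Qpctl (0.988) and E530011L22Rik (0.986), for Klk8 Ctxn2 (0.989) and Ddx49 (0.987), and for Serpinb8 Wsb1 (0.999) and Gad1 (0.997). Pan3 (0.998) and Slc1a2 (0.997) were closest to Serpini1, and 2610301B20Rik and Akap11 (0.996 each) to Serpine2. The 6 points share genotype and the GC slope of their library, and each gene named is the closest of all those tested.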

How the data were processed

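The authors deposited counts, whole numbers of reads per gene symbol for each of the 6 hippocampus libraries, not normalized and not pooled. The submitters' processing notes name STAR 2.7.4a, HTSeq and mm10. The annotation and strand setting are not given in the sources used here. Reads on no gene made up 54.1% to 55.0% of a library, and reads aligned to more than 1 place were not assigned, so similar family copies lose reads.

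Counts were analysed in R 4.3.3 with edgeR 4.0.16 (filterByExpr, TMM, robust quasi-likelihood F test, genotype as the only factor, two-sided, Benjamini-Hochberg over 14445 genes). The correction fitted natural splines (5 degrees of freedom each) on GC content and length to each library over 14201 genes with a GENCODE M21 transcript. Levels per kb used the longest coding transcript. Steps were tested on simulated data. Libraries differed beyond sampling noise (chi-square per degree of freedom 3.92 to 22.3). Alternatives were DESeq2 1.42.0, other scaling and filters, a replicate block and leaving out each mouse.

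The members and lists were chosen with earlier results of these data known. Named are the members, Ube3a, called related genes, in each list the 3 with the highest mean CPM and the largest rise and fall, and the 2 genes most alike each tested member. 2310002F09Rik and the single epidermal markers were chosen after their values were seen.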

Additional observations from a re-analysis of the deposited data

How the results depend on the processing

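The count of called genes, 290 over all genes, was 951 with DESeq2, 1176 with no filter, 87 with the GC and length correction, 61 with that correction and a replicate block, 0 with the replicate block alone (edgeR, 2422 at an unadjusted p under 0.05) and 2832 at an unadjusted p with the fold threshold. Leaving out 1 mouse gave 0 to 2582 calls, with 0 without WT mouse 2, WT mouse 3 or Ube3a m-/p+ mouse 2 (2075, 2159 and 2128 at an unadjusted p under 0.05), 2 without Ube3a m-/p+ mouse 3, 1816 without Ube3a m-/p+ mouse 1 and 2582 without WT mouse 1. Other scaling, at least 10 counts in every library and no fold threshold gave 290 to 399. Replicate numbers are shared by the genotypes, and the sources used here do not say what they mark. Deviations from the genotype mean correlated at -0.285, -0.177 and -0.310 between mice with the same number. Within WT the GC slope fell from mouse 1 to mice 2 and 3, and within Ube3a m-/p+ mice it rose. Negative correlations can follow from such slopes, so they cannot show whether the numbers pair the mice. Of all pairs of libraries, the mice numbered 1 differed least (chi-square per degree of freedom 3.92).

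Of the members, 3 were called, against 1 with DESeq2, 1 with the correction (Klk10), 1 with the correction and replicate block, 0 with the replicate block alone and 0 to 4 without 1 mouse. DESeq2 gave an adjusted p for only 3 of the 8 members and none for Klk10 and Serpinb8. Related genes called numbered 0, against 1 with RLE size factors, 1 with DESeq2, 3 with no filter, 1 with at least 10 counts, 1 with the correction, 1 with the correction and replicate block, 6 at an unadjusted p and 0 to 6 without 1 mouse (6 without WT mouse 1 and 4 without Ube3a m-/p+ mouse 1). The cause was not tested. With lengths of all exons joined, a choice made after seeing the data, 2 rather than 3 neighbouring pairs kept their order in every mouse.

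Over all alternatives, the log2 fold change lay between 1.79 and 2.11 for Klk10, -1.15 and -0.80 for Serpinb8, -0.45 and -0.05 for Serpini1, -0.34 and -0.15 for Serpine2, 0.56 and 1.04 for Klk6, 0.23 and 0.90 for Klk7 and 1.16 and 2.37 for Klk11. Klk8 reversed, with -0.0037 under the correction, -0.029 with the replicate block added and -0.0038 to 0.36 without 1 mouse. Some related genes also reversed, among them Spock3 from -0.26. With the correction alone and with the replicate block added, these were Serpinb6a (0.22 and 0.22), Spock3 (0.074 and 0.074), Thbd (-0.013 and -0.015) and Grin1 (-0.083 and -0.083). Without 1 mouse the ranges were -0.081 to 0.088 for Serpinb6a, -0.23 to 0.030 for Plau, -0.0043 to 0.12 for Lrp8, -0.032 to 0.11 for Thbd and -0.030 to 0.10 for Mbp.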
